A study of Schizosaccharomyces pombe with 9 samples.

Results

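The genes described here encode proteins of the spindle assembly checkpoint and the chromosomal passenger complex in the fission yeast Schizosaccharomyces pombe. They were taken by symbol from the deposited tables: mad1, mad2, mad3, bub1, bub3, mph1 and slp1 for the checkpoint and its target, and ark1, bir1 and pic1 for the passenger complex. All 10 had 1 row each among 5212 listed genes, with a description naming that protein, and all 10 were among the 5119 genes with enough counts to be tested. Poly(A) RNA was sequenced from whole cells in 3 groups of 3 libraries. The first group is wild type (WT). The second carries htb1-E112K, a glutamate-to-lysine substitution in histone H2B (E112K). The third carries htb1-E112K together with clr6-1, which is an allele of clr6, the gene of a class I histone deacetylase (E112K clr6-1). No group carries clr6-1 alone, so clr6-1 can be read here only on top of the H2B substitution. The labels give no growth temperature, strain background, number of clones or batch.

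The spindle checkpoint delays anaphase until kinetochores are attached to spindle microtubules. At unattached kinetochores the kinase Mph1 (the Mps1 homologue) phosphorylates Spc7, which brings in Bub1 and Bub3 and then the Mad1-Mad2 complex. Mad2 and Mad3 then bind Slp1, the Cdc20 homologue that activates the anaphase-promoting complex, and hold that ubiquitin ligase in check. The chromosomal passenger complex joins the Aurora kinase Ark1 to the scaffold Pic1 (INCENP), the survivin homologue Bir1 and the borealin homologue Nbl1. It corrects faulty attachments and is guided to centromeres in part by phosphorylation of histone H2A by Bub1.

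Libraries held 16469576 to 20013351 counts, and every pair of replicates differed by more than sampling noise. Transcripts of htb1 stood at 1669 ± 43.0 CPM in the WT libraries, 5131 ± 127 CPM in those of E112K, and 5435 ± 119 CPM in those of E112K clr6-1 (CPM, counts scaled to the library total after TMM normalisation; SD, n = 3), and clr6 at 142 ± 7.08, 87.1 ± 1.77 and 119 ± 1.47 CPM. These levels do not show which library carries the point mutations. Whether replicates were grown as separate cultures is not stated, so a p-value reflects the scatter of these libraries, which may be technical. Genes were called at a Benjamini-Hochberg adjusted p under 0.05 in edgeR's quasi-likelihood test, adjusted over all tested genes, and adjusted p-values below are of that test unless another is named. Fold changes are from the same fit, and falls are given on the log2 scale, with their standard error (SE) and 95% interval.

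Changes in the 10 genes went both ways and reached at most 0.85 on the log2 scale. In RNA from a whole culture, fewer cells in mitosis and less of a transcript per cell cannot be told apart. In E112K against WT, 4 were higher (bub1, bub3, slp1 and bir1), 4 were lower (mad1, mad2, ark1 and pic1) and 2 were not called (mad3 and mph1). Over all tested genes, 76.5% were called in that comparison, 37.6% up and 38.9% down. With both mutations against WT, 4 were higher (bub1, slp1, ark1 and bir1), 3 were lower (mad2, mph1 and pic1) and 3 were not called (mad1, mad3 and bub3), beside 83.7% of all genes called, 41.7% up and 42% down. Between the mutant strains, E112K clr6-1 over E112K, 4 were higher (mad1, slp1, ark1 and bir1), 4 were lower (bub1, bub3, mph1 and pic1) and 2 were not called (mad2 and mad3), beside 78.8% of all genes, 40.2% up and 38.6% down. The shares of the 10 genes called were thus close to the background. The median absolute log2 fold change of the 10 genes was 0.26, 0.26 and 0.33 in the 3 comparisons, and that of all tested genes was 0.27, 0.35 and 0.29. The signed medians were 0.05, 0.07 and -0.04 for the 10 genes and -0.01, -0.00040 and 0.01 for all genes. The CPM of the 2 groups did not overlap for 8 of the 10 genes in each comparison, against 78%, 84.8% and 80.5% of all genes. The comparisons with WT share the WT libraries, so they are given side by side and not as separate evidence.

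**Figure D1:**
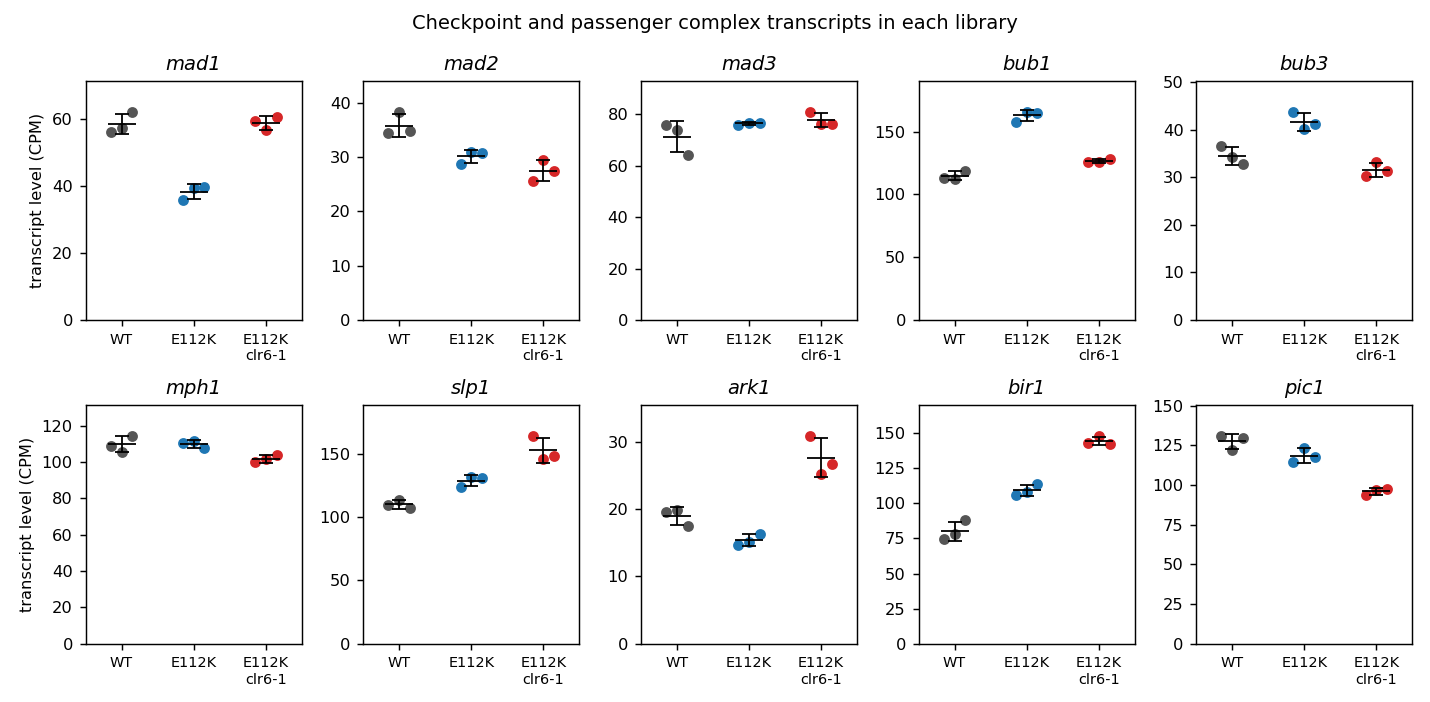
Transcript levels in CPM (y axis from 0, own scale for each gene) of the 10 genes in the 3 libraries of each group; points are libraries, the long bar is the mean and the whiskers are 1 SD. Levels of bir1 and slp1 step up from WT to E112K to E112K clr6-1, pic1 steps down, ark1 is lowest in E112K and highest in E112K clr6-1, and mad1 is low in E112K alone.

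The passenger complex subunits moved in different directions. Transcripts of bir1 (SPCC962.02c), the survivin homologue, were at 74.8, 77.9 and 87.9 CPM in the WT libraries, 106, 108 and 114 CPM in E112K, and 143, 148 and 142 CPM in E112K clr6-1. The 3 groups did not overlap, with WT lowest and E112K clr6-1 highest. Transcripts rose 1.37-fold in E112K (log2 change 0.45, SE 0.0523, adjusted p = 4.43e-06) and 1.80-fold in E112K clr6-1 (log2 change 0.85, SE 0.0512, adjusted p = 4.49e-09). The step between the mutant strains was 1.32-fold (adjusted p = 8.24e-06).

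Transcripts of the Aurora kinase gene ark1 (SPCC320.13c) were at 19.6, 19.9 and 17.4 CPM in the WT libraries, 14.6, 15.1 and 16.4 CPM in those of E112K, and 30.9, 25.3 and 26.8 CPM in those of E112K clr6-1. Every E112K library lay below every WT library and every E112K clr6-1 library above. Levels fell by 0.30 on the log2 scale in E112K (SE 0.0927, adjusted p = 0.00948) and rose 1.46-fold in E112K clr6-1 (log2 change 0.54, SE 0.0861, adjusted p = 6.12e-05). Between the mutant strains ark1 differed 1.80-fold, a log2 change of 0.85 with an interval of 0.65 to 1.04 (adjusted p = 1.66e-06), the largest absolute change among the 10 genes in that comparison.

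Transcripts of pic1 (SPBC336.15), the INCENP scaffold, were at 130.9, 122 and 129.6 CPM in the WT libraries, 114, 124 and 117 CPM in those of E112K, and 93.7, 96.6 and 97.5 CPM in those of E112K clr6-1. All E112K clr6-1 libraries lay below the others, while WT and E112K overlapped. The fall in E112K clr6-1 was 0.41 on the log2 scale (SE 0.0390, adjusted p = 4.47e-07), and that from E112K to E112K clr6-1 was 0.30 (SE 0.0394, adjusted p = 1.14e-05). The fall of 0.11 in E112K (adjusted p = 0.0236) was called in 11 of 16 alternatives. It was lost with DESeq2 (adjusted p = 0.0750) and without WT replicate 1 (0.0950), WT replicate 3 (0.0690), E112K replicate 1 (0.0815) or E112K replicate 3 (0.0630). The borealin homologue nbl1 (SPBC725.12) was scarce, at 2.34 ± 0.485 CPM in the WT libraries, 2.33 ± 0.533 CPM in those of E112K, and 4.40 ± 1.04 CPM in those of E112K clr6-1. It rose 1.89-fold in E112K clr6-1 against WT (adjusted p = 0.00283) and was not called in E112K (log2 change -0.0048, adjusted p = 0.989).

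The bases just upstream of ark1 and bir1 are shown because forkhead factors act on genes of the mitotic wave of transcription in this yeast. Among the 3 chosen passenger genes, these 2 rose in E112K clr6-1. Those of slp1, which also rose there, are shown with them. Those of bub1, which rose there as well, are not shown. Sequences are the 100 bases before the annotated transcript start, 5′ to 3′ on the strand of the gene, from RefSeq assembly ASM294v3 (ark1 plus strand, bir1 and slp1 minus strand). The sources used here do not give the build of the authors, so no coordinates are printed. Capitals mark the forkhead motif GTAAACA.
ark1: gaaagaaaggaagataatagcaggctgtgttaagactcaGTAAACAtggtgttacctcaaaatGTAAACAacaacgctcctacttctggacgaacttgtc
bir1: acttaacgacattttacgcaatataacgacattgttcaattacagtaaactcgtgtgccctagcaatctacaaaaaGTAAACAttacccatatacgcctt
slp1: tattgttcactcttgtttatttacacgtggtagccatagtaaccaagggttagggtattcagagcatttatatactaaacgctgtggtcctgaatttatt

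The motif GTAAACA was searched on both strands in the 250 bases before each annotated start. Only these exact letters were counted, and variants of the motif were not searched. It occurred at 2 places upstream of ark1, with first bases 61 and 37 bases before the start, and at 1 place upstream of bir1, 24 bases before it, and not in the windows of the other 8 genes. Of 5123 promoters of protein-coding genes, 14.8% held the motif and 1.66% held it at least 2 times. The core of the MluI cell-cycle box, ACGCG, was found upstream of bub3 (on the opposite strand) and slp1 (127 bases before the start, on the same strand) and in 9.45% of all promoters. The motifs share no bases with each other in these windows. A match is a description of letters and not of a bound site. Whether these letters have a part in the changes was not tested.

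**Figure D2:**
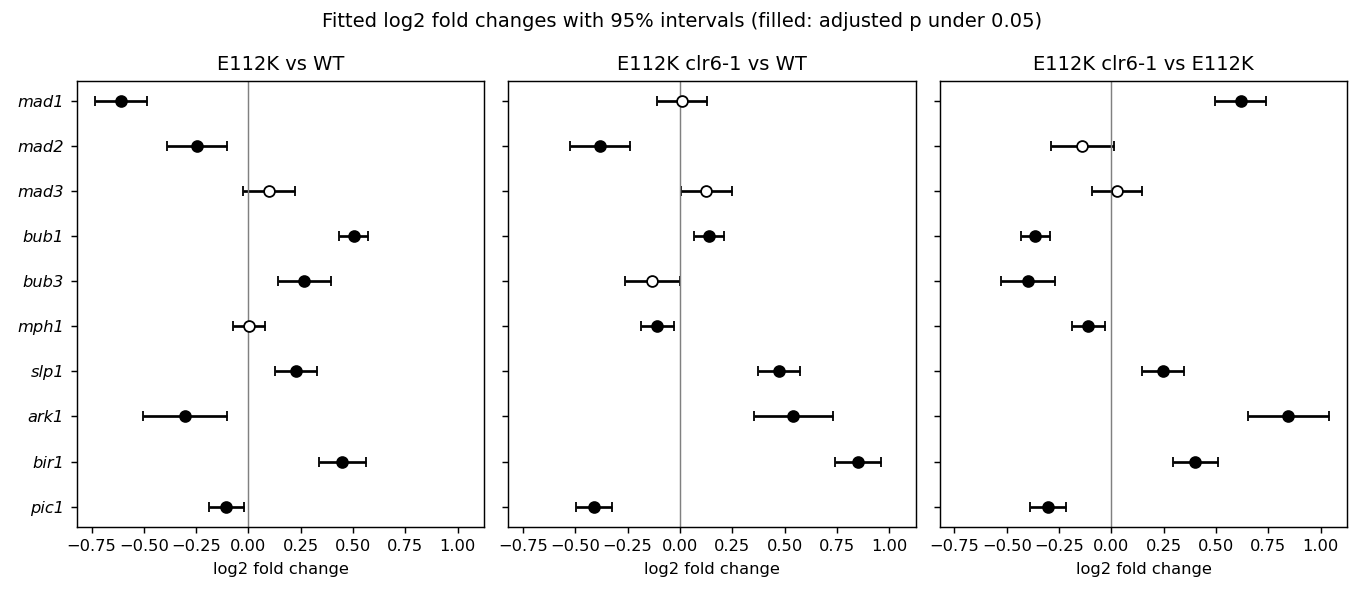
Fitted log2 fold changes (x axis) of the 10 genes in the 3 comparisons, with 95% intervals from edgeR's quasi-likelihood fit; filled points passed an adjusted p of 0.05. The intervals of ark1 lie below 0 in E112K against WT and above 0 in both comparisons of E112K clr6-1, whereas those of bir1 and slp1 lie above 0 in all 3.

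Ratios of 2 transcripts within a library do not depend on the scaling between libraries, and were taken from the authors' deposited FPKM (fragment counts scaled by transcript length and library size), which corrects for length. The ratio of bir1 to pic1 was 0.569, 0.638 and 0.676 in WT, 0.926, 0.872 and 0.965 in E112K, and 1.52, 1.53 and 1.45 in E112K clr6-1. It was thus 2.40-fold higher in E112K clr6-1 than in WT, and no 2 groups overlapped. The ratio of ark1 to pic1 went from 0.365 ± 0.0353 in WT to 0.318 ± 0.0208 in E112K, where the libraries overlapped WT, and to 0.705 ± 0.0886 in E112K clr6-1, 1.93-fold above WT without overlap. The ratio of ark1 to bir1 was lowest in E112K, at 0.345 ± 0.00741 against 0.586 ± 0.0863 in WT and 0.470 ± 0.0563 in E112K clr6-1, which overlapped each other. With 3 libraries against 3, the smallest two-sided p of an exact permutation test is 0.1, so none of the 24 ratio comparisons made here could pass 0.05. Groups did not overlap in 5 of 8 ratios in E112K against WT and in 7 of 8 in E112K clr6-1 against WT. Between the mutant strains they did not overlap in 7 of 8. Ratios of other gene pairs were not taken, so these counts have no background share. Several of the 8 ratios share a gene, so they are not separate outcomes. For the CPM of single genes, groups did not overlap for 78%, 84.8% and 80.5% of all tested genes.

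**Figure D3:**
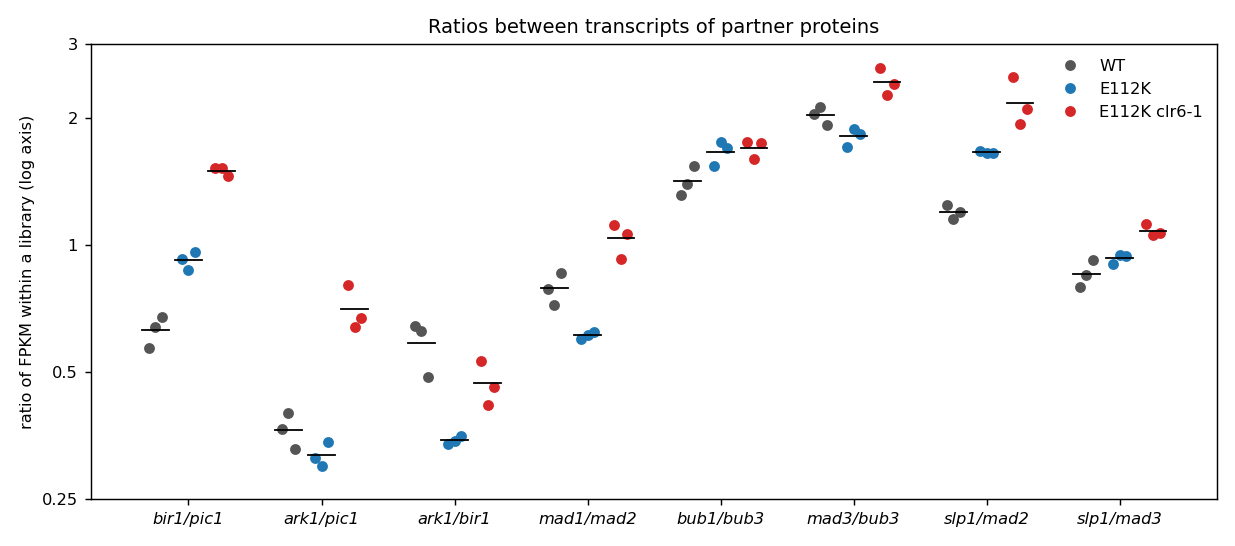
Ratios of deposited FPKM between transcripts of partner proteins within each library (log axis); points are libraries and bars are group means. The ratio bir1/pic1 lies between 0.569 and 0.676 in WT and between 1.45 and 1.53 in E112K clr6-1, and mad1/mad2 is lowest in E112K at 0.612.

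Among the checkpoint genes, mad1 (SPBC3D6.04c) had the largest fall in E112K. Mad1 anchors Mad2 at unattached kinetochores. Its transcripts were at 56.2, 57.3 and 62.0 CPM in the WT libraries, 35.8, 39.4 and 39.7 CPM in those of E112K, and 59.3, 56.6 and 60.7 CPM in those of E112K clr6-1. The E112K libraries lay below all others, and WT and E112K clr6-1 overlapped. In E112K, mad1 fell by 0.61 on the log2 scale (SE 0.0569, adjusted p = 5.51e-07). E112K clr6-1 stood 1.53-fold above E112K (log2 change 0.62, SE 0.0570, adjusted p = 4.57e-07). Against WT it was not called (log2 change 0.0093, interval -0.11 to 0.13, adjusted p = 0.879).

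Its partner mad2 (SPBC20F10.06), whose product binds Slp1, was at 34.3, 38.2 and 34.7 CPM in the WT libraries, 28.8, 31.0 and 30.7 CPM in those of E112K, and 25.5, 29.4 and 27.5 CPM in those of E112K clr6-1. All mutant libraries lay below WT, and the mutant groups overlapped each other. Transcripts fell by 0.24 in E112K (SE 0.0663, adjusted p = 0.00465) and by 0.38 in E112K clr6-1 (SE 0.0668, adjusted p = 0.000142) on the log2 scale. The difference between the mutant strains was not called (log2 change -0.14, interval -0.29 to 0.01, adjusted p = 0.0797). It was called lower in 2 of 16 alternatives, the replicate block (adjusted p = 0.0448) and the fit without E112K clr6-1 replicate 2 (0.0386). The ratio of mad1 to mad2 in FPKM was 0.790 ± 0.0695 in WT, 0.612 ± 0.0120 in E112K and 1.04 ± 0.0980 in E112K clr6-1, and no 2 groups overlapped.

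The product of bub1 (SPCC1322.12c) is a kinase that is brought to kinetochores and phosphorylates histone H2A. Its transcripts were at 113.3, 112.7 and 119 CPM in the WT libraries and 158, 166 and 165 CPM in those of E112K. In the E112K clr6-1 libraries they were at 126, 125 and 129 CPM. The E112K libraries were highest and the WT libraries lowest, without overlap. The rise was 1.42-fold in E112K (log2 change 0.50, SE 0.0321, adjusted p = 1.30e-08) and 1.10-fold in E112K clr6-1 (log2 change 0.14, SE 0.0326, adjusted p = 0.00156). From E112K to E112K clr6-1, bub1 fell by 0.36 on the log2 scale (SE 0.0319, adjusted p = 2.76e-07).

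Its binding partner bub3 (SPAC23H3.08c), a WD-repeat protein, was at 36.6, 34.3 and 32.8 CPM in the WT libraries, 43.7, 40.1 and 41.2 CPM in those of E112K, and 30.3, 33.2 and 31.3 CPM in those of E112K clr6-1. E112K lay above both other groups, which overlapped. Levels rose 1.20-fold in E112K (log2 change 0.27, SE 0.0591, adjusted p = 0.00112) and fell by 0.40 on the log2 scale from E112K to E112K clr6-1 (SE 0.0598, adjusted p = 4.40e-05). E112K clr6-1 against WT was not called (log2 change -0.13, interval -0.26 to 0.00025, adjusted p = 0.0596). That comparison passed in 4 of 16 alternatives: upper-quartile factors (adjusted p = 0.0306), limma on FPKM (0.0240), and without WT replicate 3 (0.0326) or E112K clr6-1 replicate 2 (0.0402). The ratio of bub1 to bub3 was 1.42 ± 0.115 in WT, 1.66 ± 0.113 in E112K and 1.70 ± 0.0859 in E112K clr6-1, and E112K overlapped both other groups.

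Transcripts of mad3 (SPCC1795.01c), whose product binds Slp1 with Mad2, were at 75.9, 74.0 and 64.3 CPM in the WT libraries, 76.0, 76.7 and 76.8 CPM in those of E112K, and 80.9, 76.4 and 76.4 CPM in those of E112K clr6-1. WT replicate 3 was the lowest library, and all mutant libraries lay just above WT. No comparison was called: the log2 change was 0.10 in E112K (interval -0.02 to 0.22, adjusted p = 0.127), 0.13 in E112K clr6-1 (interval 0.0033 to 0.25, adjusted p = 0.0534) and 0.03 between the mutant strains (interval -0.10 to 0.15, adjusted p = 0.675). For E112K clr6-1 against WT, 7 of 16 alternatives called it higher, with adjusted p from 0.0170 to 0.196 over all of them. Those with a call were RLE factors (0.0395), no count filter (0.0481), DESeq2 (0.0438), the replicate block (0.0475), and the fits without WT replicate 1 (0.0170), WT replicate 2 (0.0406) or E112K replicate 1 (0.0484). For E112K against WT, 1 of 16 did, the fit without WT replicate 1 (adjusted p = 0.0468). The FPKM ratio of mad3 to bub3 was 2.03 ± 0.0983 in WT, 1.81 ± 0.0886 in E112K and 2.43 ± 0.183 in E112K clr6-1, and no 2 groups overlapped.

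The kinase gene mph1 (SPBC106.01) at the top of the pathway was at 108.9, 105.7 and 114 CPM in the WT libraries, 110.5, 111 and 107 CPM in those of E112K, and 99.8, 101 and 104 CPM in those of E112K clr6-1. WT and E112K overlapped throughout, and E112K clr6-1 lay below both. In E112K the log2 change was 0.0021 (interval -0.08 to 0.08, adjusted p = 0.961). In E112K clr6-1 it fell by 0.11 against WT (SE 0.0360, adjusted p = 0.0136) and by 0.11 against E112K (SE 0.0362, adjusted p = 0.0136). The call against WT was lost without WT replicate 3 (adjusted p = 0.0787) or E112K clr6-1 replicate 1 (0.0607), and the call against E112K without E112K replicate 2 (0.0540) or E112K clr6-1 replicate 1 (0.0645).

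The target of the checkpoint, slp1 (SPAC821.08c), was at 109.4, 113 and 107 CPM in the WT libraries, 124, 132 and 131 CPM in those of E112K, and 164, 146 and 148 CPM in those of E112K clr6-1. The groups did not overlap and stood in that order. Transcripts rose 1.17-fold in E112K (log2 change 0.23, SE 0.0463, adjusted p = 0.000592), 1.39-fold in E112K clr6-1 (log2 change 0.47, SE 0.0457, adjusted p = 5.10e-07) and 1.19-fold from the first mutant strain to the second (adjusted p = 0.000259). The ratio of slp1 to mad2, its inhibitor, was 1.20 ± 0.0429 in WT, 1.66 ± 0.0109 in E112K and 2.18 ± 0.293 in E112K clr6-1. All libraries of a group lay apart from those of the others. Its ratio to mad3 was 0.855 ± 0.0614, 0.930 ± 0.0259 and 1.08 ± 0.0350, with WT and E112K overlapping.

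Compared per length, the 10 transcripts lay in the lower and middle part of the tested genes. In WT the order by FPKM was mad3 (48.7 ± 4.75), mph1 (42.7 ± 1.13), slp1 (41.5 ± 1.75), pic1 (37.4 ± 1.19), mad2 (34.6 ± 2.43), bub1 (33.8 ± 0.612), mad1 (27.3 ± 1.14), bub3 (23.9 ± 1.51), bir1 (23.4 ± 1.74) and ark1 (13.6 ± 1.14). Percentiles among tested genes ran from 50.7 for mad3 to 11.6 for ark1. The FPKM of these neighbours overlapped in WT: mad3 with mph1, mph1 with slp1, pic1 with mad2, mad2 with bub1, and bub3 with bir1. In E112K bub1 came after slp1 at 47.1 ± 1.26 FPKM and overlapped it, and mad1 was the last but ark1 at 17.6 ± 1.03 FPKM. In E112K clr6-1, slp1 was first at 56.3 ± 4.14 FPKM, overlapping mad3, and bir1 came after mad3 at 41.4 ± 0.816 FPKM. Transcripts of ark1 were last in all 3 groups, at 10.9 ± 0.699 FPKM in E112K and 19.4 ± 2.19 FPKM in E112K clr6-1, where they overlapped bub3.

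Transcripts of the anaphase-promoting complex, which Slp1 activates, and of its E2 enzymes and meiotic regulators were mostly higher in E112K clr6-1. The counts of this and the following lists stand beside 76.5% of all tested genes called in E112K (37.6% up, 38.9% down) and 83.7% in E112K clr6-1 (41.7% up, 42% down). Of 17 tested genes of this list, 16 were higher and 1 (the E2 enzyme gene ubc1, log2 change -0.34) was lower than in WT, with a median log2 change of 0.62. In E112K, 5 were higher, 4 lower and 8 not called, with a median of 0.0016 over 16 genes with counts. The subunit genes cut4 and cut23 rose 1.81-fold (adjusted p = 2.24e-10) and 1.77-fold (adjusted p = 3.24e-09) in E112K clr6-1. In E112K, cut4 rose 1.29-fold, while cut23 was at 45.0 ± 1.65 CPM in WT libraries and 45.4 ± 1.06 CPM in those of E112K. The subunit gene nuc2 rose 1.49-fold and 1.61-fold in the 2 strains. The gene apc14 was at 0.0502 ± 0.0870 CPM in the WT libraries, 5.06 ± 2.84 CPM in those of E112K, and 60.0 ± 1.19 CPM in those of E112K clr6-1. Of the meiotic regulators in the list, mfr1 had 0 counts in all libraries of WT and E112K and 1.60 ± 0.501 CPM in E112K clr6-1, and mes1 fell by 0.56 in E112K and rose 1.55-fold in E112K clr6-1. The symbol ste9 had no row.

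Of the anaphase targets, securin (cut2) fell by 0.33 on the log2 scale in E112K (adjusted p = 0.000474) and rose 1.12-fold in E112K clr6-1 (adjusted p = 0.0249). Separase (cut1) rose 1.07-fold and 1.23-fold. Cyclin B (cdc13) stood at 549.8 ± 2.86 CPM in WT libraries and 573 ± 10.8 CPM in those of E112K and fell by 0.26 in E112K clr6-1 (adjusted p = 2.53e-06).

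The kinetochore platform of the checkpoint moved both ways. Of 10 KMN genes (Spc7, Mis12 and Ndc80 complexes), 4 were higher and 4 lower in E112K, and 3 higher and 5 lower in E112K clr6-1, with median log2 changes of -0.04 and -0.08. Transcripts of mis14 fell by 1.00 and 0.92 on the log2 scale, mis12 fell by 0.25 and 0.63, and nnf1 rose 1.14-fold and 1.83-fold. The Ndc80 subunit gene spc25 fell by 0.57 in E112K clr6-1 and had a log2 change of -0.03 in E112K (adjusted p = 0.483). Of 10 DASH genes, whose products couple kinetochores to microtubules, 5 were higher and 1 lower in E112K, and 7 higher and 3 lower in E112K clr6-1, with medians of 0.21 and 0.43. Among them dam1 had 0 counts in WT, 11.3 ± 0.710 CPM in E112K libraries and 10.4 ± 1.20 CPM in those of E112K clr6-1. Transcripts of spc34 were at 1.27 ± 1.30, 18.3 ± 2.70 and 28.3 ± 2.80 CPM, ask1 fell by 0.62 and 0.31, and dad5 rose 1.21-fold and 1.80-fold.

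Among passenger complex partners, 1 of 8 genes was higher and 2 lower in E112K, and 4 higher and 3 lower in E112K clr6-1, with medians of -0.03 and 0.04. The shugoshin gene sgo2, whose product brings the passenger complex to centromeres, was at 91.2 ± 1.90 CPM in WT libraries and 95.4 ± 0.689 CPM in those of E112K (adjusted p = 0.126) and rose 1.13-fold in E112K clr6-1. The meiotic shugoshin gene sgo1 rose 1.81-fold in E112K clr6-1 (adjusted p = 9.55e-06). Of the H2A genes, hta2 fell by 0.30 and 0.38, whereas hta1 rose by 0.15 on the log2 scale in E112K (adjusted p = 0.00136) and had a log2 change of -0.0082 in E112K clr6-1 (adjusted p = 0.833). The gene swi6, the HP1 homologue, fell by 0.11 and 0.57. Of 13 spindle motor and microtubule-binding genes, 4 were higher and 6 lower in E112K, and 7 higher and 5 lower in E112K clr6-1, with medians of 0.01 and 0.33. The kinesin-8 partners klp5 and klp6 went opposite ways in E112K, klp5 rising 1.46-fold and klp6 falling by 0.87, and both rose in E112K clr6-1, 1.84-fold and 1.26-fold. The kinesin gene klp9 rose 1.84-fold and 2.18-fold, and the spindle midzone gene ase1 fell by 0.12 and 0.70.

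Of 15 mitotic kinase and phosphatase genes, 2 were higher and 9 lower in E112K, and 5 higher and 8 lower in E112K clr6-1, with medians of -0.14 and -0.28. The PP1 genes dis2, known to silence the checkpoint, and sds21 fell by 0.15 and 0.60 in E112K and by 0.53 and 0.37 in E112K clr6-1. The PP2A subunit gene par1 fell by 0.16 and 0.58, and the Cdc2-inhibitory kinase gene wee1 by 0.22 and 0.76.

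**Figure D4:**
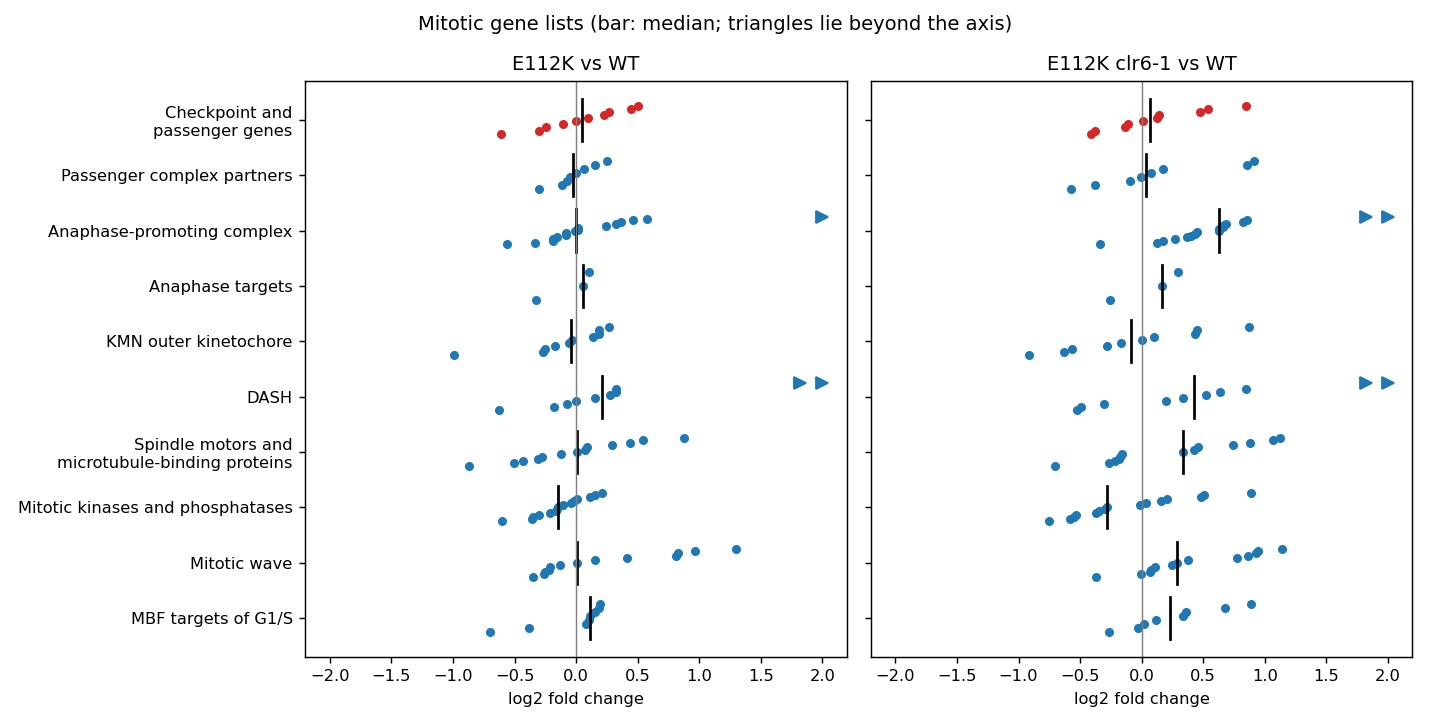
Log2 fold changes against WT (x axis) of the 10 checkpoint and passenger genes (red) and tested genes of 9 mitotic and G1/S lists (blue). Each gene of a list is a point, the median is a bar, and triangles are genes beyond 2. A gene at 0 in both groups is left out. The median of the anaphase-promoting complex list lies at 0.62 in E112K clr6-1 and near 0 in E112K.

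Markers of the cell cycle moved beside these genes. Of 13 genes of the mitotic wave of transcription, 6 were higher and 6 lower in E112K and 9 higher and 1 lower in E112K clr6-1. The median log2 changes were 0.0073 and 0.29. Their summed level was 1499 to 1525 CPM in the WT libraries, 1664 to 1699.9 CPM in E112K libraries and 1817 to 1847 CPM in those of E112K clr6-1. Transcripts of mde6, chs2 and myp2 rose 2.46-, 1.75- and 1.77-fold in E112K and 2.21-, 1.93- and 1.71-fold in E112K clr6-1. The 6 that fell in E112K were sid2 (log2 change -0.35), klp8 (-0.26), mid1 (-0.25), imp2 (-0.22), sep1 (-0.21) and fkh2 (-0.13). Of these, sid2 (0.25), klp8 (0.86) and imp2 (0.11) rose in E112K clr6-1 and mid1 (-0.37) fell. The symbol wis3 had no row.

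The 8 MBF targets of G1/S had 4 higher and 2 lower in E112K and 5 higher and 1 lower in E112K clr6-1, with sums of 1722 to 1871 CPM in the WT libraries, 1883 to 1958 CPM in those of E112K, and 2335 to 2366 CPM in those of E112K clr6-1. The median log2 changes were 0.11 and 0.23. Most of the difference in these sums came from cdc22, a subunit gene of ribonucleotide reductase, whose level was 751 ± 54.0, 854 ± 41.4 and 1201 ± 19.9 CPM in the same order. In E112K, cdc22 rose 1.14-fold, cdc18 fell by 0.70, cig2 fell by 0.38 and mik1 had a log2 change of 0.16 (adjusted p = 0.0669). In E112K clr6-1, cdc22 and mik1 rose 1.60- and 1.85-fold and cig2 fell by 0.26, while cdc18 was at 68.1 ± 3.95 CPM against 69.7 ± 4.79 CPM in WT. The part of the cell cycle in the changes of the 10 genes was not tested.

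Markers of meiotic and mating cells moved as well. Of 9 meiotic markers, 5 were higher and 0 lower in E112K and 8 higher and 1 lower in E112K clr6-1, with sums of 130.4 to 149 CPM in the WT libraries, 412 to 447 CPM in those of E112K, and 529 to 571 CPM in those of E112K clr6-1. The 7 M-cell markers summed to 174 to 189.8, 199.7 to 207 and 736 to 769.9 CPM. Of them 3 were higher and 3 lower in E112K and all 7 higher in E112K clr6-1, and mat1-Mc, the defining gene of M cells, had 0 counts in E112K, 0.0704 CPM on average in WT and 75.1 CPM in E112K clr6-1. The 4 P-cell markers summed to 725 to 755 CPM in the WT libraries, 1051 to 1102 CPM in those of E112K, and 788 to 823 CPM in those of E112K clr6-1, with 4 higher in E112K and 2 higher and 1 lower in E112K clr6-1. None of the meiotic or P-cell markers was at 0 in a group. The part of such cells in the results was not tested. In the comparisons of E112K clr6-1 it cannot be told apart from the part of clr6-1.

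The loci of the 10 genes were compared with the ASM294v3 annotation by systematic identifier, and all 10 matched. Each of the 10 overlaps at least 1 annotated non-coding RNA, all on the opposite strand and none among the tested genes. The sources used here do not give the strand counted, so reads of such antisense RNAs cannot be told apart from those of the gene. The ends of mad3, mph1, ark1 and bir1 also overlap those of the convergent genes sua5, srx1, atp23 and tcb1. Of these, tcb1 rose with bir1, by log2 changes of 0.58 in E112K and 0.82 in E112K clr6-1. With the strand counted unknown, reads from overlapping ends cannot be assigned to either gene of such a pair. The gene srx1 rose from 11.1 ± 1.77 CPM in WT to 111 ± 7.43 and 163 ± 11.7 CPM beside mph1, which was not called in E112K and fell in E112K clr6-1.

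Flanking coding genes moved both with and against the 10 genes. Among 20 pairs of a gene with a flanking coding gene, both were called in 14 in E112K against WT, 6 of them in the same direction, and in 14 in E112K clr6-1 against WT, 4 of them in the same direction. Between the mutant strains both were called in 16 pairs, 6 of them in the same direction. Single genes were called at 76.5%, 83.7% and 78.8% over all tested genes, so calls in both genes of a pair are common here. Other neighbouring pairs were not counted, so the counts of pairs and of shared directions have no background share. The gene ade6, divergent from bub1 and a common auxotrophic marker, fell by 0.83 in E112K and 0.39 in E112K clr6-1, while bub1 rose. The endoglucanase gene eng1, divergent from slp1, fell by 1.10 and 0.38, while slp1 rose. The phosphatase gene ptp4, divergent from mad1, fell by 0.49 in E112K, as mad1 did, and had a log2 change of -0.05 in E112K clr6-1 (adjusted p = 0.114).

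For each of the 10 genes, the gene of the mitotic and G1/S lists with the closest pair of log2 changes against WT was found. Euclidean distance was taken over 103 candidates and 3 groups. Some gene is always the closest, and distances were not taken for other genes, so these distances have no background. The closest gene was picked by its fold changes, so a shared direction follows from the pick. The closest was mid1 to mad2 (distance 0.014), suc22 to mad3 (0.021), klp2 to bub3 (0.036), sos7 to slp1 (0.052), hrk1 to mph1 (0.054), cut4 to bir1 (0.084), dad1 to pic1 (0.090), cdc18 to mad1 (0.098), apc11 to ark1 (0.117) and spo12 to bub1 (0.256). Like ark1, apc11 fell in E112K (log2 change -0.34) and rose in E112K clr6-1 (0.43). Like mad1, cdc18 fell in E112K and stood near WT in E112K clr6-1. The distance of bub1 was the largest of the 10, as spo12 rose by 0.42 and 0.38 where bub1 rose by 0.50 and 0.14.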

How the data were processed

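Per the labels' protocols, poly(A) RNA was selected with oligo(dT) from 9 libraries. Fastp, Bowtie2, HISAT2, RSEM, StringTie and DESeq2 are listed in the submitters' processing notes, with no version or role. Their build, annotation and strand setting are unknown here. The tables deposited by the authors give each gene's count and FPKM in every library, per the file headers. They also give the authors' own log2 fold changes, p-values and FDR, used here only to describe that deposited table and to set its calls and signs beside those of the fit.

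One edgeR 4.0.16 model in R 4.3.3 took the counts of the 3 groups (quasi-likelihood test, TMM factors from 0.987 to 1.02, filterByExpr). Its prior degrees of freedom were 6.35 and its common biological coefficient of variation was 0.0389. It was first run on simulated counts in which few genes differed, unlike here, where most were called. That check does not show how TMM behaves when most genes change. Chi-square per degree of freedom between replicates was 2.96 to 9.71, over genes with at least 20 counts in a pair. FPKM served to compare levels between genes and for ratios. Alternatives used DESeq2 1.42.0, limma 3.58.1 on log2(FPKM + 1), other factors, no filter, the 2 compared groups alone, the replicate block, and each library left out. The 10 genes and the lists were chosen with earlier results of these data known. Named genes are the 10, nbl1, htb1, clr6 and the closest gene by fold changes. Up to 4 genes of each mitotic or G1/S list, with the smallest adjusted p against WT, are also named. Neighbours, ubc1, mfr1, mes1, hta1, the falling genes of the mitotic wave, the motifs and the upstream sequences were chosen after values were seen. Of the lists, 1 and a gene of another are not reported here.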

Additional observations from a re-analysis of the deposited data

How the results depend on the processing

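Counts of called genes stayed within 1.5 times the main count in all 16 alternatives and 3 comparisons. This held for the 10 checkpoint and passenger genes and for all genes. The bound is loose, as 1.5 times each main count exceeds the genes there were to call. No count could thus pass it upward. Leaving out each library in turn gave 7 to 8, 6 to 8 and 7 to 9 of the 10 genes called (E112K and then E112K clr6-1 with WT, then the mutant strains with each other), and 3749 to 3904, 4129 to 4308 and 3850 to 4109 genes in all. The signs that turned were those of near-zero changes that were not called. The log2 change of mph1 in E112K was -0.0093 with upper-quartile factors, -0.00012 without the count filter and -0.021 with limma on FPKM, and -0.022 to 0.031 over fits without 1 library. That of mad1 in E112K clr6-1 against WT was -0.019 with upper-quartile factors and -0.021 with limma, and -0.016 to 0.057 over fits without 1 library. The same-numbered libraries did not deviate together (correlations -0.172 to 0.184 over pairs), so the numbers are not taken to pair samples. With the replicate block, 8, 8 and 9 of the 10 genes and 3876, 4267 and 4015 genes in all were called; mad3 in E112K clr6-1 (adjusted p = 0.0475) and mad2 between the mutant strains (adjusted p = 0.0448) gained a call. With limma on FPKM, 5 passenger partners against 3 and 1 anaphase target against 2 were called in E112K. The cause of these changes was not tested. How depth limits these calls was not tested.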

Other observations

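The authors' deposited table calls fewer of the 10 checkpoint and passenger genes. At an FDR under 0.05 it lists 5 of 10 for E112K, with bub1 and bir1 higher and mad1, mad2 and ark1 lower, and 5 of 10 for E112K clr6-1, with slp1, ark1 and bir1 higher and mad2 and pic1 lower. In the authors' deposited table, the FDR for E112K was 0.196 for slp1, 0.167 for bub3 and 0.0849 for pic1. The largest absolute log2 change there was 0.634 (mad1) for E112K and 0.819 (bir1) for E112K clr6-1. Its sign matched that of the edgeR fit for 9 of 10 genes in each comparison, the exceptions being mph1 in E112K (-0.02 in the authors' deposited table) and mad1 in E112K clr6-1 (-0.02 there), which neither test called.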
